A study of Mus musculus with 12 samples.

Results

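The interleukin 1 system was followed here through 8 genes, taken from the table by their symbols: the ligands Il1a, Il1b and Il18, the protease gene Casp1, the antagonist gene Il1rn, the receptor chains Il1r1 and Il1rap, and the adaptor Myd88. They are 8 of the 20606 genes in the deposited table, each has 1 line there, and all 8 passed the filter on low values used below. The measurements were bulk RNA-seq profiles of mouse lung fibroblasts in a study of breast cancer spread to the lung. The 12 libraries fall into 4 groups of 3: M-MF and M-MyoF, the MF and MyoF subgroups from mice with lung metastasis, and N-MF and N-MyoF, the same subgroups from normal mice. By the series title MF stands for matrix fibroblasts; the sources used here give neither strain, age, tumour model and mice per library nor the sorting of the subgroups. Separate mice are not stated for the 3 libraries of a group. The p-values therefore reflect the spread of these libraries alone, and that spread may be technical.

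Interleukin 1 alpha and interleukin 1 beta are early signals of tissue damage and infection. The alpha form is active as its precursor, while interleukin 1 beta and its relative interleukin 18 are made as inactive precursors that the protease caspase-1 cuts inside inflammasomes. Both forms of interleukin 1 bind the receptor chain encoded by Il1r1, which then recruits the accessory chain of Il1rap and, inside the cell, the adaptor MyD88, and the signal runs on to NF-kappaB. The protein of Il1rn occupies the receptor without starting a signal. Fibroblasts carry the receptor and answer with chemokines, cytokines, prostaglandins and acute phase proteins.

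Values are FPKM, fragment counts scaled to transcript length and to the size of the library, so levels can be set side by side between genes. Log2 fold changes are of FPKM + 1, which understates the change of genes near 0, and carry a standard error after ±. A gene passed at a limma adjusted p under 0.05 over 13300 genes tested in 1 model of the 4 groups. Levels summed to between 528176 and 618478 FPKM per library, and within-group correlations of log2 values lay between 0.996 and 0.998. Most genes passed at that small spread, so sizes of change are given beside every call. As a check of the fibroblast label, 7 fibroblast markers (collagens, Dcn and Pdgfra) summed to 14560 to 14680 FPKM in M-MF and 19620 to 19830 FPKM in N-MF. The MF libraries also held 3026 to 3048 FPKM in M-MF and 2255 to 2306 FPKM in N-MF of 7 epithelial markers, and 241 to 246 FPKM in M-MF and 6.74 to 7.04 FPKM in N-MF of 7 mesothelial ones. The fibroblast markers summed to 1862 to 1880 FPKM in M-MyoF and 2553 to 2610 FPKM in N-MyoF, which had 3228 to 3294 FPKM (M-MyoF) and 4647 to 4762 FPKM (N-MyoF) of 7 myofibroblast and smooth muscle markers. The MyoF libraries also held 15870 to 16390 FPKM in M-MyoF and 18760 to 19250 FPKM in N-MyoF of the epithelial markers, most of it Scgb1a1 of airway club cells and Sftpc of alveolar cells. In M-MyoF, 12 neutrophil markers summed to 13380 to 13720 FPKM. In bulk samples fewer cells of a type and less RNA per cell cannot be told apart.

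Rescaling the libraries moved the middle of all genes. Between M-MF and N-MF the median log2 fold change of all genes was 0.08 in the deposited values. It was -0.02 with median-ratio scaling, -0.01 with equal library sums and -0.10 with quantile normalization. Between M-MyoF and N-MyoF it was 0.11, and -0.05, -0.06 and -0.10 with these 3 rescalings in that order, which is kept below. Of the genes that passed between M-MF and N-MF 59.3% were higher in the deposited values, and 48.5%, 49.7% and 40.9% with the rescalings. Between M-MyoF and N-MyoF it was 60.8%, and 46%, 45.3% and 41.4%. The 8 members kept their direction under the rescalings in both comparisons, except Il18 in MyoF.

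The members lie on 4 chromosomes, and the stretches around the starts of 4 of them are shown before their values. Coordinates and sequences are those of RefSeq on GRCm38.p6. Il1a lies on chromosome 2 from 129299609 to 129310186 and Il1b on the same chromosome from 129364569 to 129371164, 54.4 kb away, with Il1rn far from both at 24336860 to 24351491. Casp1 (5298517 to 5307281), Il18 (50554700 to 50581841) and Myd88 (119335934 to 119340018) lie on chromosome 9, Il1r1 on chromosome 1 from 40222480 to 40316201 and Il1rap on chromosome 16 from 26581509 to 26730128. Il1a and Il1b are printed because these neighbours moved in opposite directions in MyoF, Casp1 because it changed most, and Myd88 because it was the most abundant member and fell in both subgroups. Each window runs 5′ to 3′ along the gene, from 250 bases before to 50 after the start that the RefSeq table gives, which for Il1a and Il1b lies inside the gene's full span. The windows are chr2:129309923-129310222 on the minus strand (Il1a), chr2:129371090-129371389 on the minus strand (Il1b), chr9:5298267-5298566 on the plus strand (Casp1) and chr9:119339969-119340268 on the minus strand (Myd88). Capitals mark the matches to the 4 motifs described after them.
Il1a: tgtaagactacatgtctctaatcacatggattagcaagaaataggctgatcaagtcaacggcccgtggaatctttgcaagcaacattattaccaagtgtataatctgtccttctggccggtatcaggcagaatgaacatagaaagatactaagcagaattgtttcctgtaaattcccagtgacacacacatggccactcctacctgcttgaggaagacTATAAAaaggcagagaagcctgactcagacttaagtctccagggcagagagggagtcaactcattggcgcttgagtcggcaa
Il1b: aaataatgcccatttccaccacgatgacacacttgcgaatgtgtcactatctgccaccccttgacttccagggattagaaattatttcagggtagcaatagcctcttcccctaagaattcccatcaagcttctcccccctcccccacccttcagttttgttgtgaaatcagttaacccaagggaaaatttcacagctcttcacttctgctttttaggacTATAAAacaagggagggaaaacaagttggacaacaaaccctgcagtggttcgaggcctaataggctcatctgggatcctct
Casp1: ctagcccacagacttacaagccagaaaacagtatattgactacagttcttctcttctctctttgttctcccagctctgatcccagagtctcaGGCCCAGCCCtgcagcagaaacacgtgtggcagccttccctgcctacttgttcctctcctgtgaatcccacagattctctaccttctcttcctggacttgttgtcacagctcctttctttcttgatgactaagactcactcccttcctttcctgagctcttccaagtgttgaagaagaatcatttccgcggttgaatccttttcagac
Myd88: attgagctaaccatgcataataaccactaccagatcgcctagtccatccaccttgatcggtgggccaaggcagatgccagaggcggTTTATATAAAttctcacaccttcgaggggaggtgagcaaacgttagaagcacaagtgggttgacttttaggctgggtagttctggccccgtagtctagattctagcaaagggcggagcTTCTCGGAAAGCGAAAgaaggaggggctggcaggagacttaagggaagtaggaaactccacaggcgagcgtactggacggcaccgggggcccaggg

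The motifs were searched on both strands: an NF-kappaB pattern (GGGNNNNNCC), the GAS element of STAT factors (TTCNNNGAA), the core of the interferon-stimulated response element, ISRE (GAAANNGAAA), and a TATA box (TATAAA). Of 32851 windows of the same length, 50.8% held the NF-kappaB pattern, 8.3% the GAS element, 3.44% the ISRE core and 13.6% a TATA box. Il1a and Il1b each held a TATA box, starting 32 and 31 bases before the start, and none of the other 3 motifs. Casp1 held 1 match to the NF-kappaB pattern, 158 bases before the start and on the reverse strand, a pattern that about as many windows hold as lack. In Myd88 a GAS element and an ISRE core overlapped within the run in capitals, starting 46 and 40 bases before the start, and 2 TATA matches on opposite strands overlapped farther out. A match says only that these letters are there, and a missing match only that they are not in this window.

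Il1a was lower with metastasis in both subgroups. Among all tested genes of its own group it ranked at percentile 15 in M-MF, 27.1 in N-MF, 26.8 in M-MyoF and 50.9 in N-MyoF. It stood at 1.13, 1.93 and 1.16 FPKM in M-MF, against 2.49, 2.39 and 2.25 FPKM in N-MF. In M-MyoF it had 3.72, 4.41 and 3.34 FPKM, against 8.62, 9.27 and 8.64 FPKM in N-MyoF. The groups did not overlap, and their order from high to low was N-MyoF, M-MyoF, N-MF, M-MF. The log2 fold change was -0.50 ± 0.11 between M-MF and N-MF (limma adjusted p = 0.00102) and -1.03 ± 0.11 between M-MyoF and N-MyoF (limma adjusted p = 1.68e-06). On this scale the fall was larger in MyoF, with a difference of 0.53 ± 0.155 (limma adjusted p = 0.00975). That call was lost with a pseudocount of 0.1 in place of 1 (0.44, limma adjusted p = 0.113), which weighs low values more.

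Il1b went the other way from its neighbour in MyoF. M-MyoF held 71.79, 71.45 and 71.93 FPKM, against 20.99, 22.99 and 21.26 FPKM in N-MyoF. M-MF held 3.99, 4.86 and 4.16 FPKM, against 4.78, 5.20 and 4.98 FPKM in N-MF. The M-MyoF libraries thus stood far above the rest, the N-MyoF libraries between, and the M-MF and N-MF libraries lowest and overlapping. Il1b rose 3.2-fold between M-MyoF and N-MyoF (log2 fold change 1.68 ± 0.0547, limma adjusted p = 1.07e-11). Between M-MF and N-MF it had -0.17 ± 0.0547 (limma adjusted p = 0.0132), a call lost without M-MF replicate 1 (limma adjusted p = 0.0643) or N-MF replicate 2 (0.0524). The 2 effects differed by -1.85 ± 0.0774 (limma adjusted p = 6.36e-10), the largest difference in size among the 8 members. Among all tested genes of its own group Il1b ranked at percentile 89.3 in M-MyoF and 72.9 in N-MyoF, but at 36.6 in M-MF and 42.7 in N-MF.

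Neutrophil markers moved with Il1b in MyoF. Neutrophils are known as a strong source of Il1b transcripts. The 12 markers summed to 13380 to 13720 FPKM in M-MyoF against 142 to 156 FPKM in N-MyoF, and all 12 rose, with a median log2 fold change of 5.38. Most of the sum was S100a8 and S100a9 in each group. S100a8, a calprotectin subunit of neutrophils, had 6558, 6114 and 6303 FPKM in M-MyoF against 53.3, 59.6 and 53.8 FPKM in N-MyoF. Ly6g, a surface protein specific to mouse neutrophils, had 43.1, 45.0 and 44.5 FPKM in M-MyoF, against 0.14, 0.36 and 0.14 FPKM in N-MyoF. In the MF libraries the sum was 256 to 265 FPKM in M-MF and 33.6 to 38.3 FPKM in N-MF, and 10 of 12 rose, while Il1b did not rise there. The general leukocyte markers Ptprc, Itgam and Laptm5 had mean sums of 56.1 FPKM in M-MyoF and 26.5 FPKM in N-MyoF. In MF these sums were 2.98 FPKM in M-MF and 5.27 FPKM in N-MF. Of these 3 markers all rose in MyoF, and 1 rose and 2 fell in MF. The summed level of 14 macrophage and monocyte markers, most of it Lyz2, was 1002 to 1046 FPKM in M-MyoF and 1018 to 1066 FPKM in N-MyoF, and 306 to 330 FPKM in M-MF and 306 to 321 FPKM in N-MF. Its single markers went both ways. Of 10 tested, 5 fell and 1 rose in MyoF, among them the scavenger receptor gene Cd68 with a mean of 10.5 FPKM in M-MyoF against 17.9 FPKM in N-MyoF, and the mannose receptor gene Mrc1 with 0.79 FPKM in M-MyoF against 2.78 FPKM in N-MyoF. In MF 4 fell and 1 rose. The marker that rose in both was Ly6c2, listed here for monocytes, with 30.4 FPKM in M-MyoF against 10.4 FPKM in N-MyoF and 66.1 FPKM in M-MF against 39.8 FPKM in N-MF. Ly6c2 was higher in MF than in MyoF in both kinds of lung, while the other 9 tested markers were lower in MF. Ptprc averaged 0.48 FPKM in M-MF. Marco was listed at 0 in both MF groups and Siglecf at 0 in M-MF. None of the neutrophil markers was listed at 0 in any group. The part of neutrophil or other leukocyte RNA in the Il1b rise was not tested.

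**Figure D1:**
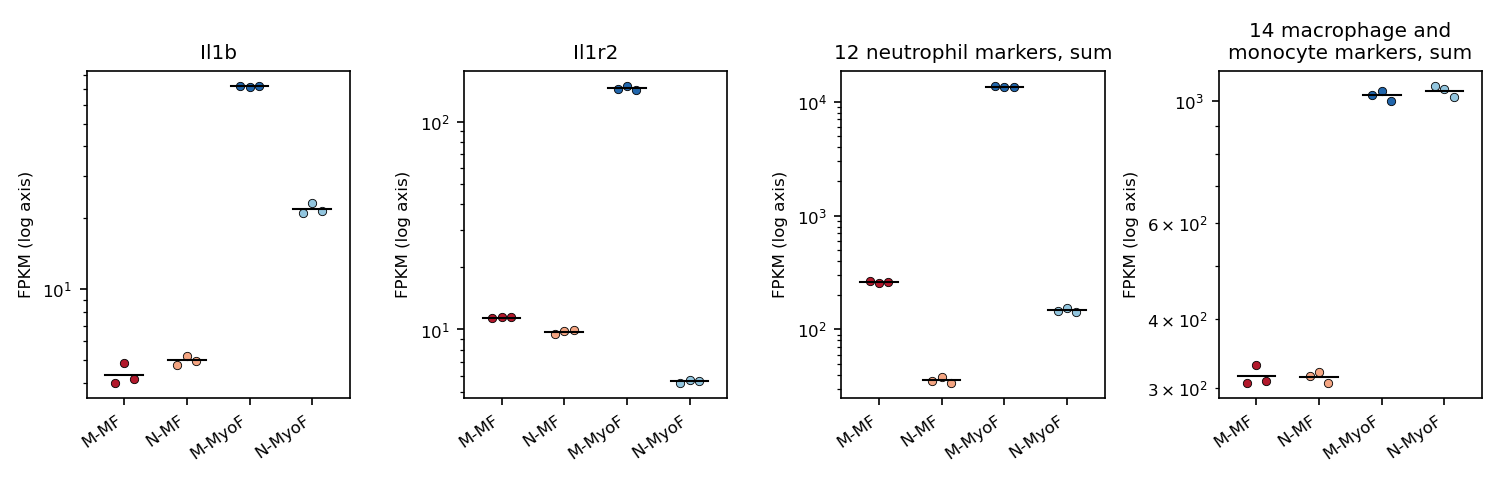
FPKM of Il1b and of the decoy receptor gene Il1r2, and the summed FPKM of 12 neutrophil and of 14 macrophage and monocyte markers, on log axes; points are libraries and lines are means of 3. Il1b, Il1r2 and the neutrophil sum are highest in M-MyoF, while the macrophage and monocyte sum, most of it Lyz2, overlaps between M-MyoF and N-MyoF.

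Il18 rose in MF. Its level was 12.13, 11.55 and 13.73 FPKM in M-MF against 4.81, 4.41 and 4.36 FPKM in N-MF. In M-MyoF it was 8.43, 7.65 and 7.83 FPKM, against 7.74, 6.67 and 7.13 FPKM in N-MyoF. The M-MF libraries were the highest and the N-MF libraries the lowest, with M-MyoF and N-MyoF overlapping between them. Il18 rose 2.43-fold between M-MF and N-MF (1.28 ± 0.065, limma adjusted p = 1.09e-09). Between M-MyoF and N-MyoF it had 0.13 ± 0.065 and did not pass (limma adjusted p = 0.0744), although it passed with the library number as a block (limma adjusted p = 0.0403). The sign there depended on scaling, with -0.033, -0.037 and -0.063 under the 3 rescalings. The effect in MF exceeded that in MyoF by 1.15 ± 0.0919 (limma adjusted p = 3.02e-07). The mesothelial sum was also highest in M-MF and lowest in N-MF, with means of 244 FPKM in M-MF and 6.88 FPKM in N-MF. Unlike Il18 it did not overlap between M-MyoF and N-MyoF, with means of 210 FPKM in M-MyoF and 82.5 FPKM in N-MyoF. The keratin genes Krt8 and Krt18, found in mesothelium and in simple epithelia, had means of 166 and 122 FPKM in M-MF against 5.31 and 4.79 FPKM in N-MF. They also rose in MyoF, with 387 and 293 FPKM in M-MyoF against 23.0 and 24.5 FPKM in N-MyoF. Of the 7 epithelial markers, these included, 5 rose and 2 fell in MF. In MyoF 2 rose, 3 fell and 2 did not pass. Sftpc fell in both, with means of 1113 FPKM in M-MF against 1228 FPKM in N-MF and 3103 FPKM in M-MyoF against 4051 FPKM in N-MyoF. The part of mesothelial or epithelial cells in the Il18 rise was not tested.

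Casp1, whose protease releases active interleukin 1 beta and interleukin 18, changed most of the 8 members. It had 19.85, 18.67 and 16.21 FPKM in M-MF, against 1.37, 2.04 and 1.77 FPKM in N-MF. In M-MyoF it had 27.77, 27.29 and 27.72 FPKM, against 0.64, 1.01 and 0.82 FPKM in N-MyoF. The metastasis libraries of either subgroup lay far above both normal groups, and no neighbouring groups overlapped in the order M-MyoF, M-MF, N-MF, N-MyoF. Mean FPKM was 10.6 times as high in M-MF as in N-MF and 33.5 times as high in M-MyoF as in N-MyoF. On the log2 scale the change was 2.82 ± 0.0956 in MF (limma adjusted p = 1.89e-11), at rank 177 of 13300 genes ordered from the largest rise down. In MyoF it was 3.98 ± 0.0956 (limma adjusted p = 5.54e-13), at rank 71. The rise in MF was smaller by a difference of -1.15 ± 0.135 (limma adjusted p = 1.01e-05). Of 12 neutrophil markers 10 rose and 2 did not pass in MF, and all 12 rose in MyoF. Of 10 macrophage and monocyte markers 4 fell and 1 rose in MF, and 5 fell and 1 rose in MyoF. Of 3 general leukocyte markers 1 rose and 2 fell in MF, and all 3 rose in MyoF. Mesothelial markers summed to 241 to 246 FPKM in M-MF against 6.74 to 7.04 FPKM in N-MF, and to 207 to 214 FPKM in M-MyoF against 82 to 82.8 FPKM in N-MyoF. The part of other cells in the Casp1 rise was not tested.

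**Figure D2:**
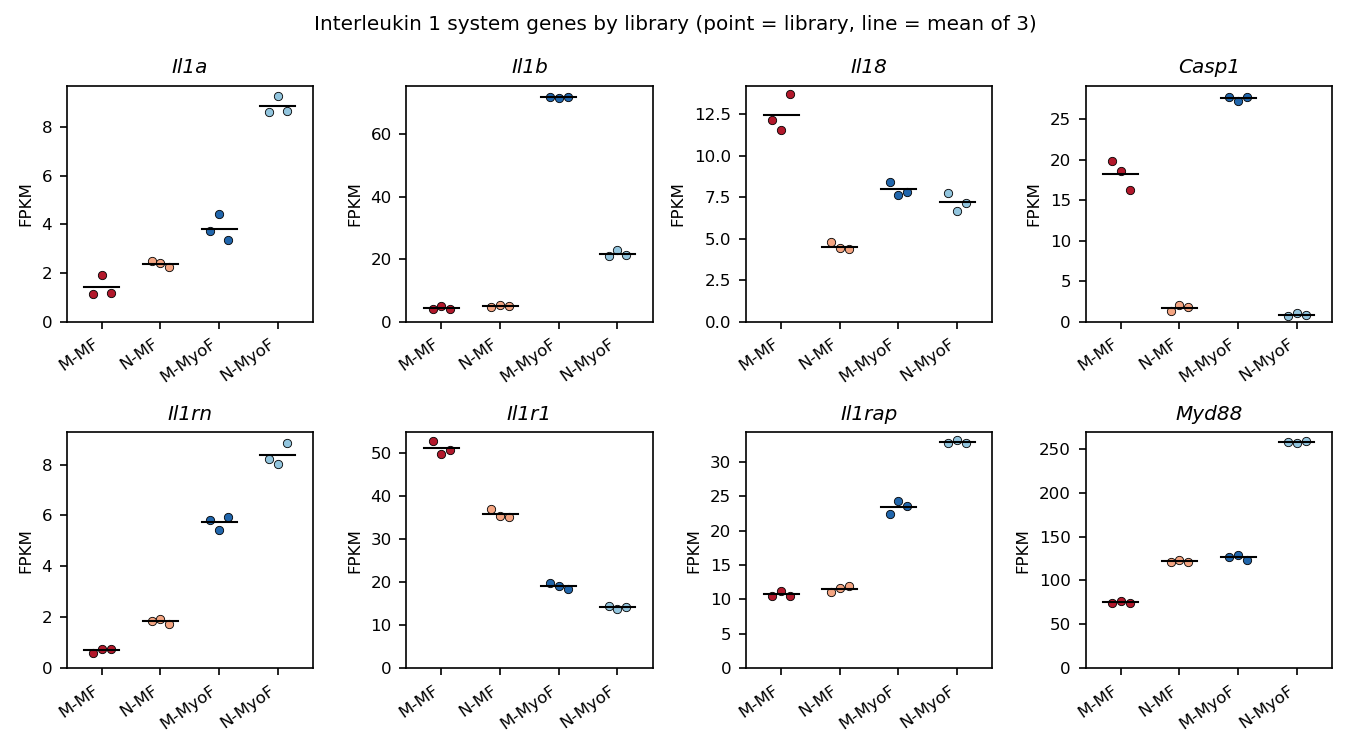
FPKM of the 8 members in each library, with 1 panel a gene and its own axis from 0; points are libraries and lines are means of 3. Casp1 is high in M-MF and M-MyoF, Il1b is highest in M-MyoF, Il18 is highest in M-MF, and Il1a, Il1rn and Myd88 are lower in the metastasis group of each subgroup.

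The antagonist gene Il1rn fell in both subgroups. M-MF held 0.61, 0.74 and 0.74 FPKM, against 1.87, 1.92 and 1.74 FPKM in N-MF. M-MyoF held 5.84, 5.42 and 5.96 FPKM, against 8.23, 8.02 and 8.85 FPKM in N-MyoF. No groups overlapped, in the order N-MyoF, M-MyoF, N-MF, M-MF, and the highest mean was 12 times the lowest. The log2 fold change was -0.75 ± 0.0518 in MF (limma adjusted p = 2.7e-08) and -0.47 ± 0.0518 in MyoF (limma adjusted p = 2.21e-06). The difference of -0.27 ± 0.0733 passed (limma adjusted p = 0.00616), but turned to 0.051 with a pseudocount of 5 (limma adjusted p = 0.267). The MF levels are near 1 FPKM.

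Il1rn was set against Il1b within each library, as a log2 ratio of FPKM + 1. In M-MyoF the ratio was -3.41, -3.50 and -3.39, against -1.25, -1.41 and -1.18 in N-MyoF, a change of -2.15. In M-MF it was -1.63, -1.75 and -1.57, against -1.01, -1.09 and -1.13 in N-MF, a change of -0.58. The antagonist transcript was below the ligand transcript in all 12 libraries, and farther below it with metastasis. In MyoF the log2 fold change was 1.68 for Il1b and -0.47 for Il1rn, and in MF it was -0.17 and -0.75. The part of neutrophil or other leukocyte RNA in these ratio changes was not tested. As a geometric mean of FPKM + 1, Il1b was 10.8 times Il1rn in M-MyoF and 2.43 times in N-MyoF. The exact two-sided permutation test gave p = 0.1 for each of the 2 changes, the smallest that 3 against 3 libraries allow. The change in MF was -0.17 with a pseudocount of 5 and -1.09 with 0.1.

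**Figure D3:**
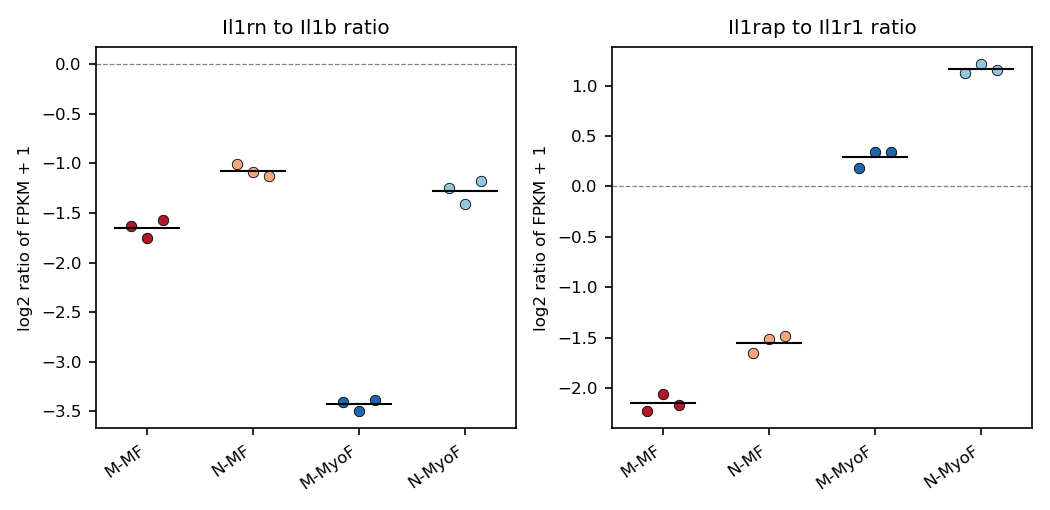
Log2 ratio of FPKM + 1 of Il1rn to Il1b (left) and of Il1rap to Il1r1 (right) in each library; points are libraries, black lines are means of 3 and the dashed line marks equal levels. Both ratios are lower in M-MF than in N-MF and lower in M-MyoF than in N-MyoF, by 0.58 and 2.15 for the left pair.

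The 2 receptor chains moved in opposite directions. Il1r1, the chain that binds the ligand, had 52.86, 49.86 and 50.70 FPKM in M-MF, against 36.91, 35.32 and 35.14 FPKM in N-MF. It had 19.73, 19.01 and 18.43 FPKM in M-MyoF, against 14.47, 13.76 and 14.21 FPKM in N-MyoF. The order M-MF, N-MF, M-MyoF, N-MyoF had no overlaps. Il1r1 rose by 0.50 ± 0.0335 in MF (limma adjusted p = 1.75e-08) and by 0.40 ± 0.0335 in MyoF (limma adjusted p = 1.39e-07). Under the 3 rescalings it still rose, by 0.38, 0.40 and 0.25 in MF and by 0.22, 0.23 and 0.17 in MyoF. The difference of the effects was 0.10 ± 0.0474 (limma adjusted p = 0.0877), and passed with the library number as a block (limma adjusted p = 0.0233).

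Il1rap, the accessory chain that the receptors of interleukin 33 and interleukin 36 also use, had 10.52, 11.20 and 10.51 FPKM in M-MF, against 11.05, 11.69 and 11.91 FPKM in N-MF. In M-MyoF it had 22.48, 24.40 and 23.61 FPKM, against 32.74, 33.18 and 32.78 FPKM in N-MyoF. M-MF and N-MF overlapped and the MyoF groups did not. Il1rap fell by 0.47 ± 0.0374 on the log2 scale in MyoF (limma adjusted p = 9.57e-08). In MF it had -0.10 ± 0.0374 (limma adjusted p = 0.033), a call lost without M-MF replicate 1 or 3 (limma adjusted p = 0.0997 and 0.102), without N-MF replicate 2 or 3 (0.0865 and 0.119), and with only these 2 groups in the fit (0.0598). The effects differed by 0.37 ± 0.0529 (limma adjusted p = 5.19e-05). The log2 ratio of Il1rap to Il1r1 was -2.23, -2.06 and -2.17 in M-MF against -1.65, -1.52 and -1.49 in N-MF. It was 0.18, 0.34 and 0.34 in M-MyoF, against 1.13, 1.21 and 1.15 in N-MyoF. The accessory chain was thus below the receptor in all MF libraries and above it in all MyoF libraries, and the ratio changed by -0.60 with metastasis in MF and by -0.87 in MyoF. The exact permutation p was 0.1 for each, again the smallest possible.

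The adaptor Myd88, which serves the Toll-like receptors as well, was the most abundant member in all 4 groups and fell in both subgroups. M-MF held 74.19, 77.16 and 73.95 FPKM, against 121.68, 123.31 and 120.68 FPKM in N-MF. M-MyoF held 126.87, 129.08 and 123.23 FPKM, against 257.83, 257.38 and 259.60 FPKM in N-MyoF. M-MF was lowest, N-MyoF highest, and M-MyoF and N-MF overlapped. The log2 fold change was -0.69 ± 0.022 in MF (limma adjusted p = 9.96e-12) and -1.03 ± 0.022 in MyoF (limma adjusted p = 1.88e-13), and these differed by 0.33 ± 0.0311 (limma adjusted p = 1.22e-06). Its percentile among tested genes was 90.6 in M-MF, 95.2 in N-MF, 93.9 in M-MyoF and 97.7 in N-MyoF.

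Counted together, all 8 members passed between M-MF and N-MF, where 78.1% of all tested genes did. Of them 3 were higher, against 46.3% of all genes, and 5 lower, against 31.8%. Between M-MyoF and N-MyoF 7 of 8 passed, against 80.7% of all genes, with 3 higher against 49.1% and 4 lower against 31.6%. Values of the groups did not overlap for 6 of 8 members in MF, against 79.8% of all genes, and for 7 of 8 in MyoF, against 82.2%. The shares that passed or did not overlap are near the background and are no result about the members. At 2-fold or more Casp1 and Il18 rose in MF, 2 of 8 where 11.9% of all genes changed, 9.32% higher and 2.54% lower. In MyoF Casp1 and Il1b rose and Il1a and Myd88 fell at least 2-fold, 4 of 8 where 14.6% of all genes changed, 11.4% higher and 3.24% lower. The median log2 fold change of the members was -0.13 in MF and -0.17 in MyoF, against 0.08 and 0.11 for all tested genes. The effects in MF and MyoF differed for 7 of 8 members, against 64.4% of all genes. The difference was positive for 4, against 26.4% of all genes, and negative for 3, against 38%. It reached 2-fold for 3 of 8 against 7.1% of all genes, above 0 for Il18, against 3.83%, and below 0 for Il1b and Casp1, against 3.27%. With a pseudocount of 5 it did so for 1 of 8 members, and for 456 instead of 944 of all genes. The members were chosen with earlier results of these data known. Their shares, here and below, therefore stand beside those of all genes as a description only.

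**Figure D4:**
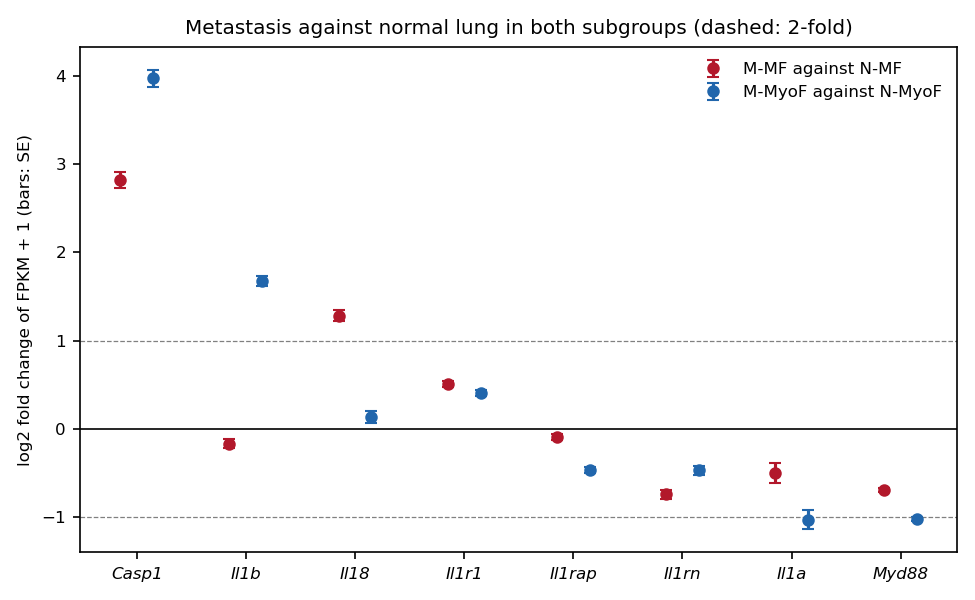
Log2 fold change of FPKM + 1 of the 8 members with metastasis in MF (red) and in MyoF (blue); bars are standard errors and dashed lines mark a 2-fold change. Casp1 rises most in both subgroups, Il1b stands at 1.68 in MyoF and -0.17 in MF, Il18 at 1.28 in MF and 0.13 in MyoF, and Il1rn, Il1a and Myd88 are below 0 in both.

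The subgroups also differed from each other, and in the same order in both kinds of lung for 6 of the 8 members. Il1r1 was the only member that was higher in MF than in MyoF in both, with log2 fold changes of 1.38 ± 0.0335 between M-MF and M-MyoF and 1.28 ± 0.0335 between N-MF and N-MyoF. Il1a (-1.01 and -1.54), Il1b (-3.77 and -1.93), Il1rn (-1.99 and -1.72), Il1rap (-1.06 and -1.43) and Myd88 (-0.74 and -1.08) were lower in MF in both, the first value of each being that of the metastasis groups. Casp1 and Il18 changed sides: Casp1 had -0.58 between M-MF and M-MyoF and 0.58 between N-MF and N-MyoF, and Il18 had 0.58 and -0.56. All 8 passed in each of these comparisons, against 85.1% of all genes in the metastasis groups and 82% in the normal ones, and for all 8 the groups did not overlap, against 85.6% and 82.4%. Between M-MF and M-MyoF 2 were higher, against 19.1% of all genes, and 6 lower, against 66%. Between N-MF and N-MyoF 2 were higher, against 24.5%, and 6 lower, against 57.6%. At 2-fold or more 5 of 8 differed between M-MF and M-MyoF, against 13.6% of all genes, with 1 higher against 4.74% and 4 lower against 8.82%. Between N-MF and N-MyoF 6 of 8 did, against 16.8%, with 1 higher against 4.88% and 5 lower against 11.9%. The share of passing genes that were higher in MF was 22.4% between M-MF and M-MyoF as deposited, and 42.8%, 28.8% and 47.4% under the 3 rescalings. Between N-MF and N-MyoF it was 29.8%, and 46%, 31% and 52.2%. These 4 comparisons share libraries, so the normal and metastasis values of a member are set side by side only. The epithelial, general leukocyte and macrophage and monocyte sums given above were higher in both MyoF groups than in the MF groups. The neutrophil sum was higher in MyoF than in MF within each kind of lung. Of 10 macrophage and monocyte markers tested, 9 were lower and 1 was higher in MF in each comparison. The part of such cells in these differences was not tested.

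Other ligands of the family were read from lists of pathway genes. Of 7 further ligand and binding protein genes 6 were in the table, and 3 passed the filter on low values: Il33, Il18bp and Il36g, which the table lists as Il1f9. Il33, an alarmin stored in the nucleus, averaged 190 ± 3.66 FPKM in M-MF against 89.2 ± 2.2 FPKM in N-MF, and 27.5 ± 0.16 FPKM in M-MyoF against 8.45 ± 0.61 FPKM in N-MyoF (mean ± SD, n = 3). It rose by 1.09 ± 0.0388 and 1.60 ± 0.0388. Il18bp, the secreted protein that captures interleukin 18, had 29.50, 29.26 and 31.37 FPKM in M-MF against 3.55, 3.57 and 4.03 FPKM in N-MF. It had 28.26, 26.14 and 27.69 FPKM in M-MyoF against 4.02, 4.21 and 3.51 FPKM in N-MyoF, and rose by 2.72 ± 0.0576 in MF and 2.53 ± 0.0576 in MyoF. The binding protein thus rose in both subgroups, while Il18 itself passed in MF alone, as given above. Il36g, an alarmin of the family, had 15.29, 14.54 and 15.61 FPKM in M-MyoF against 0.88, 0.93 and 1.17 FPKM in N-MyoF (3.02 ± 0.0715). It averaged 0.45 FPKM in M-MF and 0.44 FPKM in N-MF, where it did not pass (limma adjusted p = 0.856). The neutrophil sum given above was also highest in M-MyoF, and the epithelial sum averaged 16130 FPKM in M-MyoF against 18970 FPKM in N-MyoF. The part of such cells in the Il36g rise was not tested.

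All 6 other receptor genes of the family passed in both subgroups, with 6 higher in MF and 5 higher and 1 lower in MyoF. Of all tested genes 78.1% passed in MF, 46.3% as higher, and 80.7% passed in MyoF, 49.1% as higher, so 6 of 6 passing is no result by itself. After rescaling 5, 5 and 4 were higher in MF and none was lower, and the counts in MyoF were the same. Il1r2, the decoy receptor that binds interleukin 1 without signalling, had 142.83, 148.05 and 141.90 FPKM in M-MyoF, against 5.51, 5.73 and 5.63 FPKM in N-MyoF. In M-MF it had 11.37, 11.43 and 11.42 FPKM, against 9.47, 9.88 and 9.98 FPKM in N-MF. It rose by 4.46 ± 0.0282 in MyoF, at rank 48 of all genes, and by 0.20 ± 0.0282 in MF, a call lost under quantile normalization (0.06, limma adjusted p = 0.0675). M-MyoF thus had more decoy than Il1r1 transcript, and the other 3 groups less. Neutrophils are also known to carry Il1r2, the neutrophil sum is given above, and its part in this rise was not tested.

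For the receptors of interleukin 33 and interleukin 18 the change with metastasis differed between the subgroups. Il1rl1, the interleukin 33 receptor ST2, had 5.94, 6.09 and 5.98 FPKM in M-MF against 0.09, 0.08 and 0.08 FPKM in N-MF, and rose by 2.69 ± 0.0566. In MyoF it rose by 0.93 ± 0.0566, with a mean of 1.45 FPKM in M-MyoF and 0.28 FPKM in N-MyoF. Il18r1, the binding chain for interleukin 18, averaged 9.33 ± 0.48 FPKM in M-MF against 1.49 ± 0.113 FPKM in N-MF (2.05 ± 0.0591), and 8.85 ± 0.4 FPKM in M-MyoF against 6.26 ± 0.538 FPKM in N-MyoF (0.44 ± 0.0591). Between M-MF and M-MyoF Il18r1 did not pass (0.07 ± 0.0591, limma adjusted p = 0.299), but passed as higher in M-MF after each of the 3 rescalings (0.30, 0.17 and 0.38). Its partner chain Il18rap stayed under 0.4 FPKM in MF and averaged 3.21 ± 0.189 FPKM in M-MyoF against 0.25 ± 0.052 FPKM in N-MyoF (1.75 ± 0.0569). Sigirr, an inhibitory receptor of the family, rose by 1.84 ± 0.0818 in MF and by 1.79 ± 0.0818 in MyoF.

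The inflammasome genes around Casp1 changed less than Casp1 itself. Of 12 such genes 8 were tested; 5 rose and 2 fell in MF, and 6 rose and 1 fell in MyoF, with list medians of 0.52 and 0.47 against 0.08 and 0.11 for all genes. None changed 2-fold in MF. The 7 of 8 that passed in each subgroup are near the background of 78.1% and 80.7% of all genes. The sensors Nlrc4, Aim2, Nlrp1a and Nlrp1b did not pass the filter, and Nlrp3 was barely measured, with a mean of 0.117 FPKM in M-MF, 0.15 FPKM in N-MF, 1.32 FPKM in M-MyoF and 0.893 FPKM in N-MyoF, and passed as higher in MyoF (0.30 ± 0.0611, limma adjusted p = 0.000653). Pycard, the adaptor that joins sensors to caspase-1, rose by 0.83 ± 0.0642 in MF and had -0.02 ± 0.0642 in MyoF, where it passed as lower after each of the 3 rescalings (-0.17, -0.19 and -0.20). Casp4, the caspase that senses bacterial lipopolysaccharide, averaged 30.4 ± 0.789 FPKM in M-MF against 17.1 ± 0.701 FPKM in N-MF (0.80 ± 0.0349), and 24.0 ± 0.266 FPKM in M-MyoF against 6.79 ± 0.24 FPKM in N-MyoF (1.68 ± 0.0349). Gsdme, a pore-forming gasdermin, rose by 1.63 ± 0.0852 in MyoF and had -0.23 ± 0.0852 in MF.

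Below the receptor, 16 of 17 signalling genes were tested, and calls went both ways. In MF 6 rose, 6 fell and 4 did not pass, and in MyoF 6 rose, 7 fell and 3 did not pass, with medians of -0.04 and -0.01. Of all genes 46.3% rose and 31.8% fell in MF, and 49.1% rose and 31.6% fell in MyoF, so the shares that passed are near the background. With the rescalings 5 to 6 of 16 or 17 rose and 9 to 10 fell in MF, and 4 to 5 rose and 9 to 10 fell in MyoF. Nfkb1, which encodes the NF-kappaB precursor p105, was the only one to change 2-fold, with 11.38, 11.69 and 11.64 FPKM in M-MyoF against 27.96, 27.10 and 28.33 FPKM in N-MyoF (-1.20 ± 0.0432). It had -0.10 ± 0.0432 in MF, which did not pass without the 4 libraries numbered 3 (limma adjusted p = 0.418). Irak3, a kinase-like inhibitor of the pathway, rose by 0.39 ± 0.0379 in MF and by 0.50 ± 0.0379 in MyoF. Traf6, the ubiquitin ligase downstream of MyD88, rose by 0.33 ± 0.0486 in MF and had 0.03 ± 0.0486 in MyoF, where it passed as lower under each of the 3 rescalings (-0.14, -0.15 and -0.17).

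Genes known to answer interleukin 1 in fibroblasts went both ways. Of 24, 14 rose and 7 fell in MF, 9 and 3 of them at least 2-fold, and 15 rose and 8 fell in MyoF, 10 and 4 at least 2-fold. Of all genes 46.3% rose and 31.8% fell in MF, 9.32% and 2.54% at least 2-fold, and 49.1% rose and 31.6% fell in MyoF, 11.4% and 3.24% at least 2-fold. Saa3, an acute phase protein, averaged 3576 ± 40 FPKM in M-MF against 9.47 ± 2.08 FPKM in N-MF and 472 ± 5.22 FPKM in M-MyoF against 14.7 ± 1.21 FPKM in N-MyoF (8.44 ± 0.109 and 4.91 ± 0.109). Csf3, the growth factor of neutrophils, had 43.22, 41.94 and 42.39 FPKM in M-MF against 0.40, 0.33 and 0.29 FPKM in N-MF, and 62.08, 60.49 and 62.43 FPKM in M-MyoF against 0.55, 0.51 and 0.46 FPKM in N-MyoF. Its log2 fold changes were 5.02 ± 0.038 and 5.38 ± 0.038. Lcn2, which binds bacterial siderophores and is also a neutrophil granule protein, rose by 5.88 ± 0.0648 in MF and 6.35 ± 0.0648 in MyoF, and Ptges, a prostaglandin E synthase, by 1.27 ± 0.0229 and 1.68 ± 0.0229. Icam1, an adhesion molecule that NF-kappaB induces, fell in both, with 160.99, 157.86 and 159.24 FPKM in M-MF against 392.33, 388.19 and 384.61 FPKM in N-MF (-1.28 ± 0.0158). It had 230.46, 226.48 and 227.18 FPKM in M-MyoF against 967.12, 954.34 and 941.92 FPKM in N-MyoF (-2.06 ± 0.0158). Il6, named here after its values were seen, fell as well, by 1.49 on the log2 scale in MF and by 1.73 in MyoF.

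**Figure D5:**
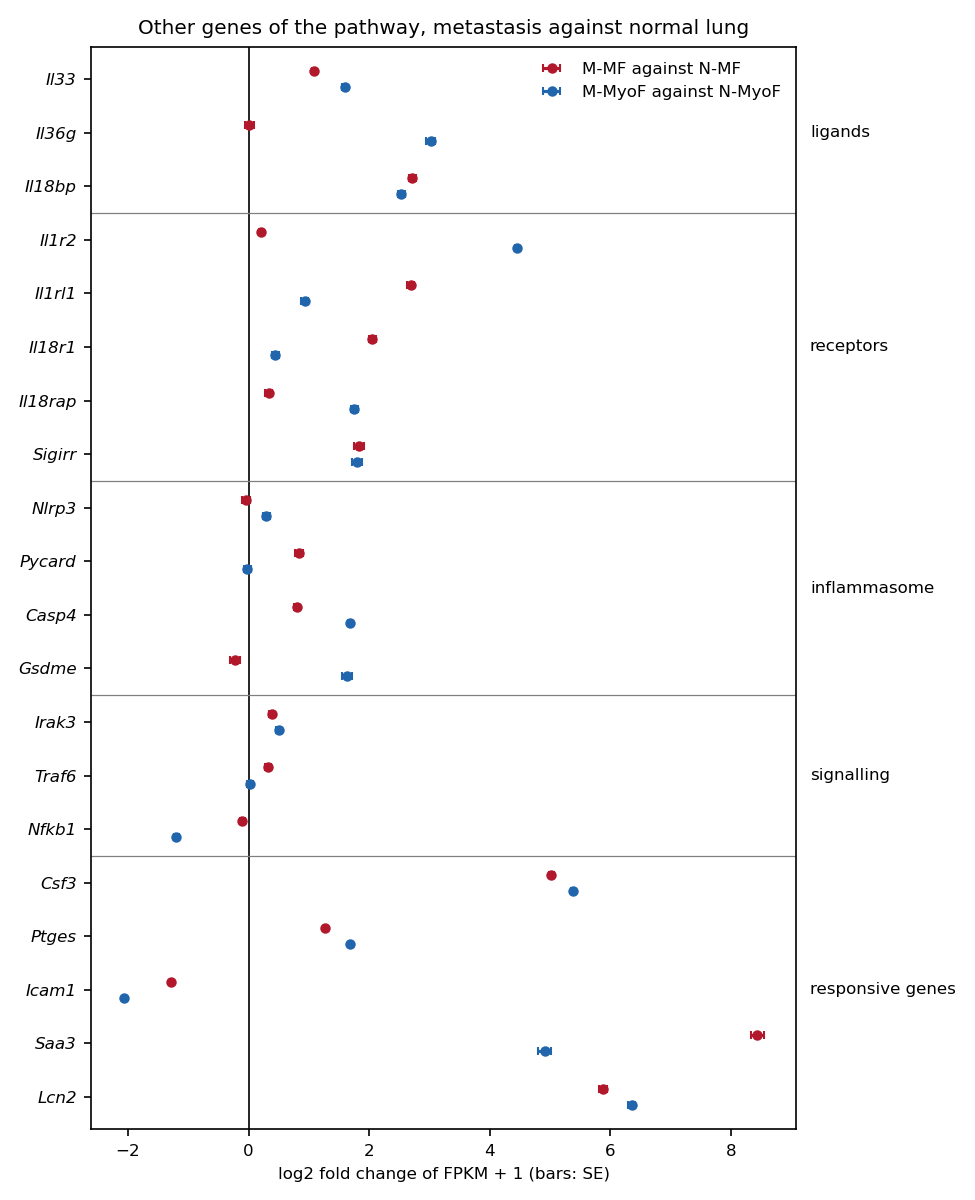
Log2 fold change of FPKM + 1 with metastasis in MF (red) and in MyoF (blue) of the 20 named genes of the 5 pathway lists; bars are standard errors. Il1r2 and Il36g stand far to the right in MyoF alone (4.46 and 3.02), Il1rl1 and Il18r1 stand farther right in MF (2.69 and 2.05), and Icam1 stands left of 0 in both.

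For each member the tested genes with the most similar pattern over the 4 group means were found, among 9550 named genes that reached 5 FPKM in a group, by the root mean square difference of centred log2 values. Il1r1 was closest to Bmp1 (0.0253), Il1rap to Mical3 (0.0256) and Myd88 to Mzt2 (0.0339). Il1rn was closest to Ednra (0.0389), Il1a to Adamts1 (0.0474), Il18 to Ptgis (0.0779) and Il1b to Lcp1 (0.0948). Casp1 was closest to Mthfd2, at 0.157, a larger distance than for the other 7. Mthfd2 averaged 21.3 FPKM in M-MF, 2.91 FPKM in N-MF, 38.9 FPKM in M-MyoF and 1.86 FPKM in N-MyoF, and Lcp1 averaged 3.42, 3.26, 56.5 and 15.3 FPKM in the same groups. With 4 points a pattern, likeness of this kind is a description of these group means only.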

How the data were processed

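Groups were taken from the sample titles. Trizol was used for extraction, per the labels' protocols, and polyA RNA was copied and amplified with SMART-seq2 chemistry, and libraries were made with a transposon. Per the submitters' processing notes the build was GRCm38. The sources used here do not give aligner, counter or annotation. The authors deposited FPKM values with at most 2 decimals, whose steps did not give whole reads, so the depth is unknown and precision rests on the spread between 3 libraries. All 12 sample columns were mapped.

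Values were analysed as log2(FPKM + 1) for the 13300 genes that reached 1 FPKM in 3 or more libraries, in R 4.3.3 with limma 3.58.1 (1 model of 4 group means, mean-variance trend, Benjamini-Hochberg adjustment over all genes); the code was tested on simulated data. Passing means an adjusted p under 0.05. Ratios were tested by exact two-sided permutation over libraries. Tables and figures were made with Python 3.11.15, pandas 2.3.3, numpy 2.4.6 and matplotlib 3.10.9.

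The members and the lists (153 genes, 152 matched, 4 of them by a RefSeq synonym; Il1f10 did not match) were chosen with earlier results of these data known. Beyond the members, the text names per pathway list and metastasis comparison up to 4 genes with the smallest p at 2-fold or more, plus Il1r2, Il1rl1, Il18r1, Il18bp, Nlrp3, Pycard, Irak3 and Traf6, and marker genes as examples. Alternatives were other pseudocounts, filters and scalings, the compared groups only, the library number as a block, and leaving out libraries.

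No label says what the numbers 1 to 3 mark. Over 1830 genes at 50 FPKM or more, the deviations from group means of the 18 same-numbered pairs of libraries correlated at 0.482 to 0.796, and those of 36 other pairs at -0.683 to 0.38. Deviations from a group mean cancel within the group, which by itself lowers the correlations of the other pairs. The numbers were taken to pair libraries across groups. The main model and the main ratio tests leave this pairing out, and it entered only as the alternative with the library number as a block.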

Additional observations from a re-analysis of the deposited data

Results flagged for a closer look

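The change with metastasis differed between the subgroups for 7 of the 8 members by a test of the difference itself (limma, MF minus MyoF, log2 scale). It was lower in MF for Il1b (-1.85), Casp1 (-1.15) and Il1rn (-0.27), and higher for Il18 (1.15), Il1a (0.53), Il1rap (0.37) and Myd88 (0.33). Among all tested genes 64.4% passed that test. For Il1a, Il1rap and Myd88 the positive value means a smaller fall in MF, and for Casp1 the negative one a smaller rise. The Il1a call was lost with a pseudocount of 0.1 (limma adjusted p = 0.113). The Il1rn difference turned to 0.051 with a pseudocount of 5 (limma adjusted p = 0.267).

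Of the 20 other named genes of the pathway, most of them picked for a small p at 2-fold or more, 8 differed by at least 2-fold between the subgroups, where 7.1% of all tested genes did. That pick used the effects that the difference is made of, so 7.1% is no yardstick for these genes. The effect was lower in MF for Il1r2 (-4.25), Il36g (-3.01), Gsdme (-1.86) and Il18rap (-1.42). It was higher in MF for Saa3 (3.52), Il1rl1 (1.76), Il18r1 (1.61) and Nfkb1 (1.09). Neutrophil markers differed in the same comparison, with 11 of 12 lower in MF at 2-fold or more and a median of -3.24. Mesothelial markers differed the other way, with 6 of 6 higher in MF and a median of 2.71. Their part in these differences was not tested.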

How the results depend on the processing

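Of 872 recomputed values of single members, 850 kept their direction and their side of the threshold. Il18 in MyoF turned to -0.033 under median-ratio scaling, -0.037 under equal sums and -0.063 under quantile normalization, and the Il1rn difference to 0.051 with a pseudocount of 5. In the remaining cases a call was lost or gained: the Il1a difference, Il1b and Il1rap in MF, and the Il1r1 difference and Il18 in MyoF, which also passed without M-MF replicate 3 (adjusted p = 0.0413) or N-MyoF replicate 1 (0.0282). The Il1r1 difference passed with a pseudocount of 5 (0.13), under equal sums (0.17) and median-ratio scaling (0.15), and without M-MyoF replicate 1 (0.12). Without the 4 libraries numbered 3, Il1b (-0.15) and Il1rap (-0.06) in MF did not pass. The causes were not tested.

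The count of genes at 2-fold or more moved with the pseudocount. With 5 it was 767 instead of 1578 between M-MF and N-MF, 1072 instead of 1941 between M-MyoF and N-MyoF, 456 instead of 944 for the difference, 861 instead of 1804 between M-MF and M-MyoF, and 1107 instead of 2232 between N-MF and N-MyoF. With 0.1 it was 2397 between M-MF and N-MF, 1448 for the difference and 2768 between M-MF and M-MyoF. Members at 2-fold with a pseudocount of 5 numbered 1 instead of 2 between M-MF and N-MF, 1 instead of 3 for the difference and 2 instead of 5 between M-MF and M-MyoF, where median-ratio scaling and quantile normalization each gave 3. The Il1rn to Il1b change in MF was -1.09 with a pseudocount of 0.1, -0.17 with 5 and -0.73 under equal sums, and in MyoF -1.84 with 5. The Il1rap to Il1r1 change was -0.49 in MF under quantile normalization and -0.74 in MyoF with a pseudocount of 5.

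With the library number as a replicate block, 8 members passed between M-MyoF and N-MyoF and 8 for the difference, instead of 7 each, and no other call on a member changed. Of all 13300 genes, 10888 instead of 10734 then passed between M-MyoF and N-MyoF, and 8853 instead of 8566 for the difference. Between M-MF and N-MF 10520 genes passed instead of 10382. For the 4 ratio changes the exact paired permutation test cannot go below p = 0.25.

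Leaving out 1 library at a time, 6 to 8 members passed between M-MF and N-MF, 7 to 8 between M-MyoF and N-MyoF and for the difference, and 8 in both comparisons of the subgroups. Of the 13104 to 13246 genes then tested, 9999 to 10320 passed between M-MF and N-MF and 10270 to 10700 between M-MyoF and N-MyoF. For the difference 8111 to 8243 passed, between M-MF and M-MyoF 10870 to 11280, and between N-MF and N-MyoF 10460 to 10870. The comparison with only the compared groups was not run for the difference of effects, nor filters for the ratios, which have none. With 3 libraries a group and unknown depth, small changes of genes near 1 FPKM, such as Il1rn and Il1a in MF, rest most on the pseudocount.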
